A study of Vitis vinifera with 2 samples.

Results

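The genes described here are 3 enzymes of the late anthocyanin pathway, DFR, LDOX and FAOMT, and 2 MYB transcription factors, LOC100853472 and MYBC2-L1. They were chosen by their gene names in the transcript tables and are 5 of 30485 genes. All 5 were measured, meaning a level of at least 1 FPKM (fragments counted per kilobase of the model and corrected for library size) in either library, as were 16040 genes in all. The study looked in grape (Vitis vinifera) for resistance-related genes that respond to the yeast Yarrowia lipolytica. One library came from wound tissue given 10 µL of a suspension of the yeast, and the other from wound tissue given an equal amount of sterile water. Incubation was at 20 °C, and sampling followed 3 days after the treatment. The labels give no cultivar, berry colour or number of pooled berries. With 1 library per group no test was possible, no difference has a replicate check, and bracketed values are 95% counting intervals that say nothing of variation between wounds.

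Anthocyanins are the red to blue pigments of grape skin and are the coloured end of the flavonoid pathway. Dihydroflavonol reductase (DFR) and leucoanthocyanidin dioxygenase (LDOX, also called anthocyanidin synthase) make the anthocyanidin core. These steps also feed the synthesis of proanthocyanidins, the condensed tannins. UFGT adds the sugar that makes a stable anthocyanin, and the O-methyltransferase FAOMT adds methyl groups to it. MYB factors of the MYBA type switch on UFGT in the berry, together with bHLH partners such as MYC1 and WD40 proteins such as WDR1. MYBC2-L1 is known in grape as a repressor-type MYB of the flavonoid pathway.

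The 5 genes did not move together. DFR stood at nearly the same level in both libraries, LDOX was lower in the yeast-treated library, and FAOMT was higher there from a very low level. LOC100853472, listed with the synonyms MybA1, MybA3, mybA and VvmybA3, was lower in the yeast-treated library, and so was MYBC2-L1. The MYBA-type and the repressor-type MYB thus lay on the same side, below the water control. Whether either gene acts as its type does was not tested. On the log2 scale with a pseudocount of 1 FPKM, 2 of the 5 genes were at least 2-fold lower and 0 were at least 2-fold higher. Among all measured genes, 3.66% were at least 2-fold lower and 6.26% at least 2-fold higher. The genes were picked out with earlier results of these data known, so their share is a description only.

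The yeast-treated library held 20540965 fragment equivalents and the water library 19010746, at 300 bases each. Over the 16040 measured genes the log2 ratio had a median of -0.28, so a gene at the median lay below the water control. The 9 markers listed for berry tissue summed to 25161 FPKM in the yeast-treated and 25892 FPKM in the water library. Most of this came from GRIP4, TL3 and CHI4D, with GRIP4 at 8709 FPKM with the yeast and 9967 FPKM with water. The near-equal sums of the 9 markers hide members on opposite sides. MRIP1, a ripening-induced gene, stood at 2750.3 FPKM with the yeast and 581 FPKM with water, while the other 8 lay below the water control, GRIP22 for example at 439.5 FPKM with the yeast and 794 FPKM with water. NCED1, a berry-list gene of abscisic acid synthesis, was low, at 0.400 FPKM with the yeast and 1.93 FPKM with water. The only matched marker of green tissue, PSBP1 (1 of 5 listed), stood at 0.988 FPKM with the yeast and 1.07 FPKM with water. Seed-coat markers were near the measuring limit, 3 genes summing to 2.90 FPKM with the yeast and 2.92 FPKM with water. Skin pigmentation markers, 3 matched of 4 listed, summed to 29.3 FPKM with the yeast and 40.4 FPKM with water. They were UFGT, LOC100853472 and GST4, and most of the sum was GST4. In bulk tissue, fewer cells of a type and less RNA per cell cannot be told apart.

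**Figure D1:**
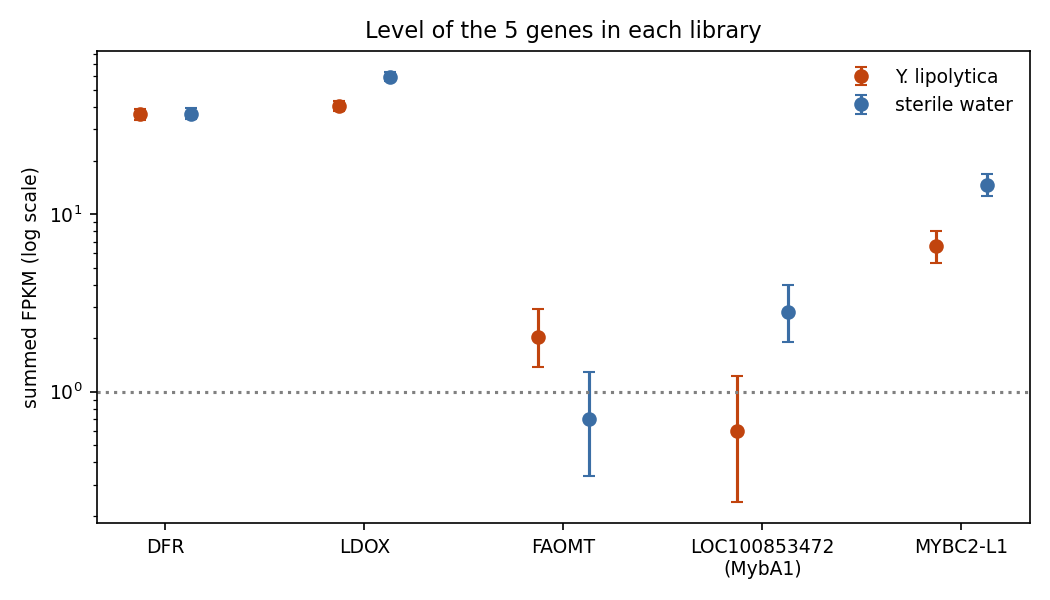
Summed FPKM (log axis) of each gene in the yeast-treated library (left point of each pair) and in the water library (right point), with 1 library each; bars are exact 95% Poisson intervals on fragment equivalents and the dotted line marks 1 FPKM. DFR and LDOX lie above 30 FPKM in both libraries, while FAOMT and LOC100853472 each lie below 1 FPKM in one of them.

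DFR, which reduces dihydroflavonols to leucoanthocyanidins, stood at 36.4 FPKM in the yeast-treated library and 36.8 FPKM in the water library. The plain ratio was 0.990 (0.894 to 1.10), which rests on 780 fragment equivalents with the yeast and 734 with water. The 2 values lie within each other's counting interval. The log2 ratio of -0.01 stood 0.26 above the median of all genes, at percentile 72.8 of all measured ratios. After rescaling the libraries to a median ratio of 0, the log2 ratio of DFR was 0.30. DFR has a single transcript model of 6 exons and 1014 bases, on the minus strand of chromosome 18 from 10907581 to 10910049.

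LDOX, which turns leucoanthocyanidins into coloured anthocyanidins, stood at 40.6 FPKM in the yeast-treated library and 59.5 FPKM in the water library. It was the most abundant of the 5 genes in both. The plain ratio was 0.682 (0.625 to 0.743), from 915 and 1250.3 fragment equivalents with the yeast and with water. Its log2 ratio of -0.54 was within 2-fold and lay 0.27 below the median of all genes, at percentile 22.9. Rescaling to a median ratio of 0 brought it to -0.23. Its single model has 2 exons and 1068 bases, on the plus strand of chromosome 2 from 4282539 to 4283777.

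DFR and LDOX are consecutive steps, and their balance differed between the libraries. LDOX stood at 1.11 times the FPKM of DFR in the yeast-treated library and at 1.62 times in the water library. The DFR to LDOX ratio was 1.45 times as high with the yeast as with water (1.27 to 1.66). This ratio of ratios does not depend on how the libraries are scaled to each other. F3H, which makes the dihydroflavonols that DFR uses, lay on the other side of the control from LDOX, at 73.1 FPKM with the yeast and 56.6 FPKM with water, 1.29 times the control (1.20 to 1.39). LDOX therefore stood at 0.555 times the FPKM of F3H with the yeast and at 1.05 times with water.

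FAOMT, which carries the synonyms OMT3.1 and VvAOMT, stood at 2.04 FPKM in the yeast-treated library and 0.698 FPKM in the water library. The water value rests on 9.73 fragment equivalents, against 30.4 with the yeast. The plain ratio was 2.92 (1.39 to 6.69), whose lower bound is below 2-fold. With the pseudocount the log2 ratio was 0.84, within 2-fold and 1.11 above the median of all genes, at percentile 92.5. FAOMT passed the filter of 1 FPKM only through its yeast-treated value. A gene kept in this way lies above the control by the filter alone, so its percentiles are descriptions only. Among the 5097 genes with a mean of 1 to 5 FPKM, 6.96% were at least 2-fold higher without a pseudocount, and the plain ratio of FAOMT was at percentile 95.5 of that group. After rescaling to a median ratio of 0 the log2 ratio of FAOMT was 1.06, past 2-fold. FAOMT stood at 0.0559 times the FPKM of DFR with the yeast and at 0.0190 times with water. Its single model has 5 exons and 708 bases, on the plus strand of chromosome 1 from 20850133 to 20852279.

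LOC100853472 stood at 0.597 FPKM in the yeast-treated library and 2.81 FPKM in the water library. These levels come from 7 and 30.7 fragment equivalents, with the yeast and with water. The level of 3 fragments on its model would be 0.256 FPKM with the yeast and 0.275 FPKM with water, so both values lay above that floor. The plain ratio was 0.213 (0.0791 to 0.493), so the whole interval lies below 0.5. On the log2 scale with the pseudocount, where the call was made, the interval ran from -1.64 to -0.68 and crosses the 2-fold line. Its log2 ratio of -1.25 ranked 228 from the lowest of all measured genes, at percentile 1.42. LOC100853472 passed the filter of 1 FPKM only through its water value. A gene kept in this way lies below the control by the filter alone, so its rank and percentiles are descriptions only. Among genes with a mean of 1 to 5 FPKM, 18.2% were at least 2-fold lower without a pseudocount, and the plain ratio of LOC100853472 was at percentile 1.29 of that group. With a pseudocount of 5 FPKM it was within 2-fold, at -0.48.

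The model of LOC100853472 has 3 exons and 555 bases, on the minus strand of chromosome 2 from 14308523 to 14309283. The synonyms name both MybA1 and MybA3, so the identifier does not settle which copy of the berry colour locus the fragments came from. MYBA genes at that locus are close copies, and how shared fragments were divided among them is not stated in any source used. Within 100 kb on either side lay 8 other gene models, and 0 of them reached 1 FPKM. The highest of them in the yeast-treated library, LOC100261851, 25278 bases away, stood at 0.292 FPKM with the yeast and 0.409 FPKM with water. The highest in the water library, LOC100233098, 67636 bases away, stood at 0.0679 FPKM with the yeast and 0.739 FPKM with water, from 1.28 and 12.99 fragment equivalents. Both were named after their values were seen.

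MYBC2-L1 stood at 6.58 FPKM in the yeast-treated library and 14.6 FPKM in the water library. The plain ratio was 0.450 (0.349 to 0.578), from 95.3 and 198 fragment equivalents with the yeast and with water. Its log2 ratio of -1.04 was just past 2-fold and ranked 500 from the lowest, at percentile 3.11. The counting interval on that scale, -1.36 to -0.72, crosses the 2-fold line. Among genes with a mean of 5 to 20 FPKM, 4.04% were at least 2-fold lower on the same scale. The call did not hold under every setting: the log2 ratio was -0.76 after rescaling to a median ratio of 0, -0.97 after rescaling by the upper quartile and -0.76 with a pseudocount of 5 FPKM.

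MYBC2-L1 is the only one of the 5 genes with more than 1 transcript model, both on the plus strand of chromosome 1 from 4330134 to 4331211. The annotated model has 3 exons and 678 bases. An assembled model with the same ends has 2 exons and is 147 bases longer. The annotated model carried 94.7% of the gene's FPKM with the yeast and 92.7% with water, at 6.23 FPKM and 13.5 FPKM. The assembled model stood at 0.350 FPKM with the yeast and 1.07 FPKM with water, a ratio of 0.326 (0.105 to 0.867) from 6.10 and 17.4 fragment equivalents. Both models lay below the water control, and their intervals overlap.

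**Figure D2:**
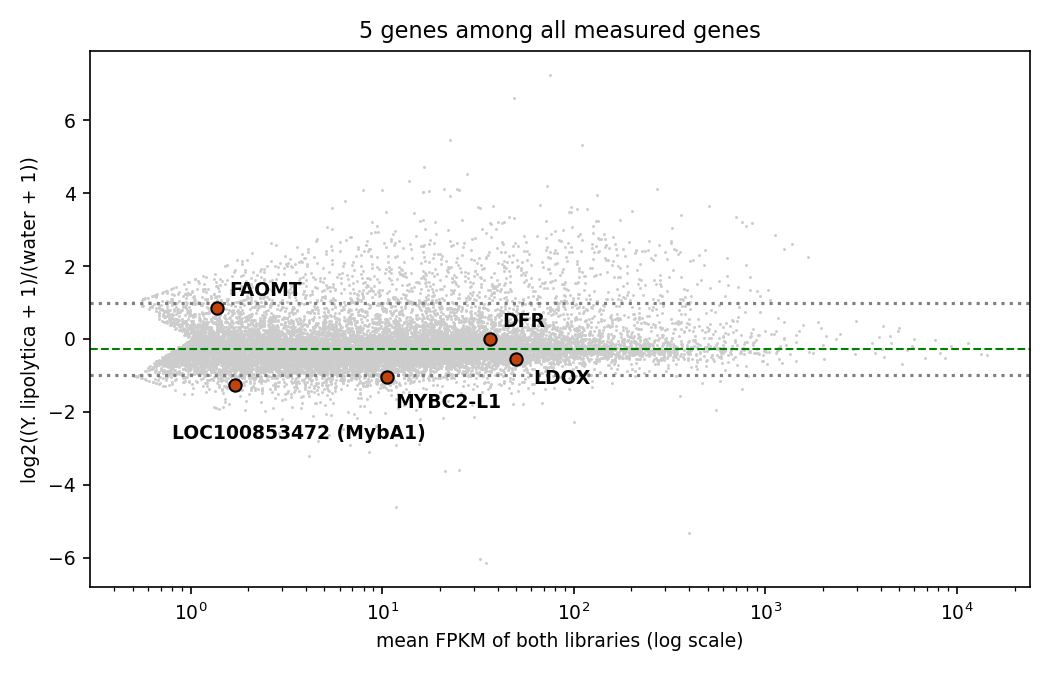
Log2 ratio of yeast-treated over water FPKM, with a pseudocount of 1, against the mean FPKM of both libraries (log axis); grey points are the 16040 measured genes, the dashed line is their median of -0.28 and dotted lines mark 2-fold. LOC100853472 and MYBC2-L1 lie below the lower dotted line, and DFR lies above the dashed line.

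The balance of the 2 MYB genes was compared within each library. MYBC2-L1 stood at 11.0 times the FPKM of LOC100853472 with the yeast and at 5.20 times with water. The ratio of these ratios was 2.12 (0.875 to 5.92), and the interval includes 1, so a shift in the balance of repressor-type to MYBA-type transcripts was not detectable at this depth. DFR relative to MYBC2-L1 stood at 5.54 with the yeast and 2.52 with water, a ratio of 2.20 (1.69 to 2.92). LDOX relative to MYBC2-L1 stood at 6.17 with the yeast and 4.07 with water, a ratio of 1.51 (1.17 to 2.00). DFR relative to LOC100853472 stood at 61.0 with the yeast and 13.1 with water. Both enzymes were thus higher relative to the repressor-type MYB in the yeast-treated library, although DFR was level and LDOX lower.

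The wider flavonoid list held 51 gene names, of which 31 matched 27 genes of the files, 3 of them among the 5 genes above. Of the 24 other genes, 15 were measured, and 0 of these were at least 2-fold higher or lower. Among all measured genes 6.26% were at least 2-fold higher and 3.66% at least 2-fold lower. At these shares few of 15 genes would lie past 2-fold. The median log2 ratio of the 15 was -0.44, against -0.28 over all measured genes, and 10 of the 15 lay below the median of all genes. Their plain ratios ran from 0.576 to 1.73. By their point values FAOMT, LOC100853472 and MYBC2-L1 lay outside the range of the other measured genes of the list, and DFR and LDOX within it. FAOMT and LOC100853472 passed the filter only through their higher library, so their place outside that range is a description only. The intervals of FAOMT, 1.39 to 6.69, and MYBC2-L1, 0.349 to 0.578, reach into that range. The interval of LOC100853472, 0.0791 to 0.493, does not. ANR, left out by the filter, had a ratio of 1.77 (0.824 to 4.05). Also left out were LAR1, with a ratio of 0.672, and LOC100232896, with 0.0332 from at most 1.28 fragment equivalents in either library. This is a description of single libraries.

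Enzymes upstream of DFR were split. Chalcone isomerase, CHI, stood at 325 FPKM with the yeast and 188 FPKM with water, 1.73 times the control (1.66 to 1.81). The chalcone synthase CHS3 stood at 15.8 FPKM with the yeast and 27.3 FPKM with water. CHS stood at 11.8 FPKM with the yeast and 17.8 FPKM with water, 0.664 times the control, and 0.812 times by the deposited values. FLS1, of the flavonol branch, stood at 1.34 FPKM with the yeast and 2.25 FPKM with water. F3'H, the hydroxylase that leads to cyanidin-type pigments, stood at 47.1 FPKM with the yeast and 64.8 FPKM with water, 0.726 times the control (0.683 to 0.772). The hydroxylase of the delphinidin branch, F3'5'H, was listed at 0 in both libraries, and LOC100232896, with the same synonym, was at or below 0.0461 FPKM in both. These hydroxylases belong to a family of copies of which only those with a symbol or synonym were counted.

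Of the genes listed downstream of LDOX, the glucosyltransferase and the tannin enzymes were far lower in level, and the transporter GST4 was within 2-fold of LDOX. UFGT, the glucosyltransferase that commits the pathway to anthocyanins, stood at 1.17 FPKM with the yeast and 1.94 FPKM with water, 0.603 times the control (0.387 to 0.928). LDOX was 34.7 times as abundant as UFGT with the yeast and 30.7 times with water, a ratio of 1.13 (0.726 to 1.77). GST4, a glutathione S-transferase known to carry anthocyanins to the vacuole, stood at 27.5 FPKM with the yeast and 35.7 FPKM with water, 0.772 times the control (0.671 to 0.887). The tannin enzymes LAR2, LAR1 and ANR were at or near the measuring limit. LAR2 stood at 1.88 FPKM with the yeast and 2.66 FPKM with water, and ANR at 0.977 FPKM with the yeast and 0.551 FPKM with water. DFR and LDOX were therefore well expressed in both libraries while the listed enzymes that take their products to anthocyanin or tannin were at a few FPKM or less.

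**Figure D3:**
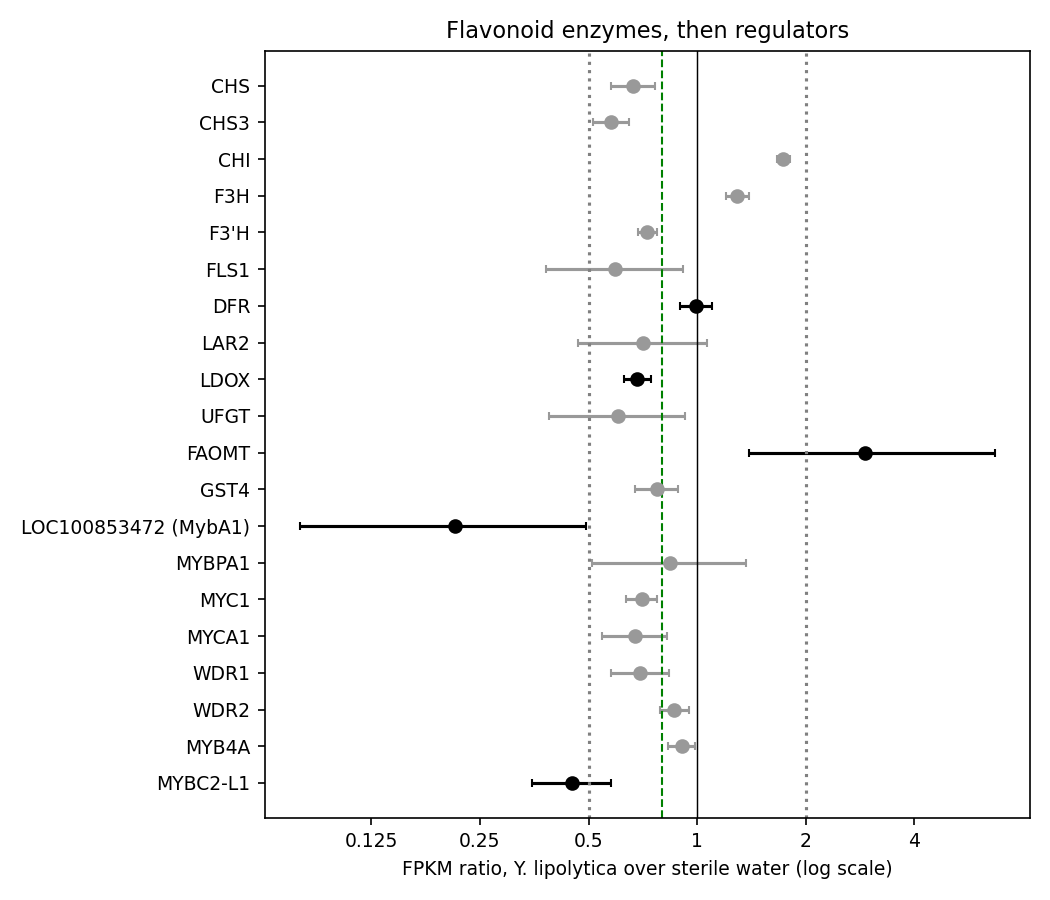
Plain FPKM ratio of the yeast-treated over the water library (log axis) for the measured enzymes and the transporter GST4, then for the measured regulators; bars are 95% counting intervals, black marks the 5 genes, grey the rest of the list, the dashed line is the median of all measured genes and dotted lines mark 2-fold. Black points spread from 0.213 to 2.92, while grey points lie between 0.576 and 1.73. The black points at both ends, LOC100853472 and FAOMT, passed the filter only through their higher library.

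The other regulators in the list were all within 2-fold, 6 of 6 measured. Most measured genes were also within 2-fold, with 6.26% at least 2-fold higher and 3.66% at least 2-fold lower. MYC1, a bHLH partner of MYB factors in grape flavonoid synthesis, stood at 14.3 FPKM with the yeast and 20.4 FPKM with water, 0.701 times the control (0.637 to 0.772). The WD40 partner WDR1 stood at 7.82 FPKM with the yeast and 11.3 FPKM with water, and the related WDR2 at 38.5 FPKM with the yeast and 44.5 FPKM with water. MYB4A, a repressor-type MYB like MYBC2-L1, stood at 59.8 FPKM with the yeast and 66.0 FPKM with water, 0.905 times the control (0.829 to 0.989). The interval of MYB4A does not overlap that of MYBC2-L1, at 0.349 to 0.578. By the deposited values MYB4A stood at 0.750 times the control, outside its own interval, and MYBC2-L1 at 0.448 times. MYBPA1, an activator of tannin genes, stood at 1.68 FPKM with the yeast and 2.00 FPKM with water. MYCA1 stood at 2.66 FPKM with the yeast and 3.96 FPKM with water.

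Several regulators were listed at 0 in both libraries, namely MYBA6, MYBA7, MYBC2-L2, MYB4B and the flavonol regulator MYB12. LOC100853472 was thus the only MYBA-type gene of the list with a level above 0, and MYBC2-L1 the only MYBC2-type gene. Other genes of both types may stand in the files without a symbol.

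The 5 genes sit in 5 separate places. FAOMT and MYBC2-L1 are on chromosome 1, LDOX and LOC100853472 on chromosome 2 and DFR on chromosome 18. No other gene model overlaps the span of any of them. The nearest measured genes of DFR were LOC100243725, at 3.82 FPKM with the yeast and 6.93 FPKM with water, and LOC100245556, at 87.0 FPKM with the yeast and 108 FPKM with water. LDOX has LOC100253090 3824 bases downstream, which stood at 64.8 FPKM with the yeast and 26.2 FPKM with water, 2.47 times the control, against 0.682 for LDOX. On its other side LOC100242824 stood at 1.04 FPKM with the yeast and 3.22 FPKM with water. The files give these numbered genes no name or function.

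Within 100 kb of FAOMT lay 19 other gene models, 16 of them below 1 FPKM in both libraries. The nearest measured gene on each side of FAOMT lay 99908 bases before and 71086 bases after it. They were LOC100260931, at 4.79 FPKM with the yeast and 7.51 FPKM with water, and LOC100262484, at 22.4 FPKM with the yeast and 36.3 FPKM with water. Beyond LOC100262484, 92321 bases from FAOMT, LOC100255760 stood at 146 FPKM with the yeast and 167 FPKM with water. The nearest measured genes of LOC100853472 lay 236905 and 248995 bases away, with LOC100265506 at 4.12 FPKM with the yeast and 6.36 FPKM with water, and LOC100246578 at 2.37 FPKM with the yeast and 3.06 FPKM with water. MYBC2-L1 lay between LOC100244049, at 1.05 FPKM with the yeast and 1.87 FPKM with water, and LOC100264511, at 1.56 FPKM with the yeast and 2.16 FPKM with water. Among the 5 measured genes on each side of MYBC2-L1, 3 of 10 were at least 2-fold higher in the yeast-treated library and 0 lower. One of the 3, LOC100256093, stood at 122 FPKM with the yeast and 21.6 FPKM with water. The same counts were 1 higher and 2 lower for LDOX, 1 and 0 for LOC100853472, and 0 of either for DFR and FAOMT. Over all measured genes the shares were 6.26% higher and 3.66% lower.

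**Figure D4:**
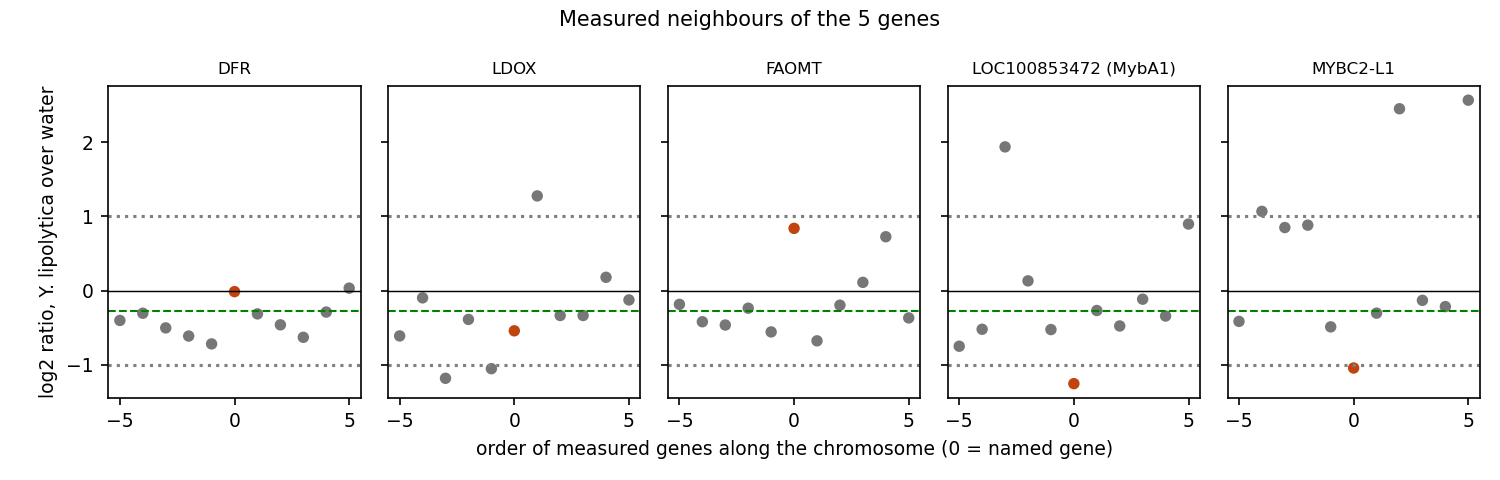
Log2 ratio (yeast-treated over water, pseudocount 1) of each gene, in colour at order 0, and of the 5 measured genes on either side, in grey, by order along the chromosome; the dashed line is the median of all measured genes and dotted lines mark 2-fold. MYBC2-L1 is the lowest point of its panel and has 3 neighbours above the upper dotted line, and FAOMT is the highest point of its own.

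With 2 libraries a pattern is a single ratio, so the genes most like each of the 5 can be named by log2 ratio alone, among 329 measured genes with a symbol. Nearest to DFR were TL3 and TPC1, both at -0.01, and nearest to LDOX were ADH7, at -0.54, and GRIP68, at -0.55. Nearest to FAOMT were CCC1, at 0.87, and the microRNA precursor MIR169X, at 0.80. Nearest to LOC100853472 were the precursors MIR171A, at -1.23, and MIR482, at -1.32. Nearest to MYBC2-L1 were UVR1 and TIP1;1, both at -1.05. Many genes share such a ratio, so this likeness describes its size only.

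All 5 annotated models of these genes have a length that is a whole multiple of 3, against 37.3% of the 47275 annotated transcripts in the files. Such lengths are what models without untranslated regions would have, but the models were not compared with coding sequences. If they hold none, fragments that fall only in untranslated regions would not add to the values, which would bear on levels compared between genes. The comparison between libraries uses the same model on both sides.

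**Figure D5:**
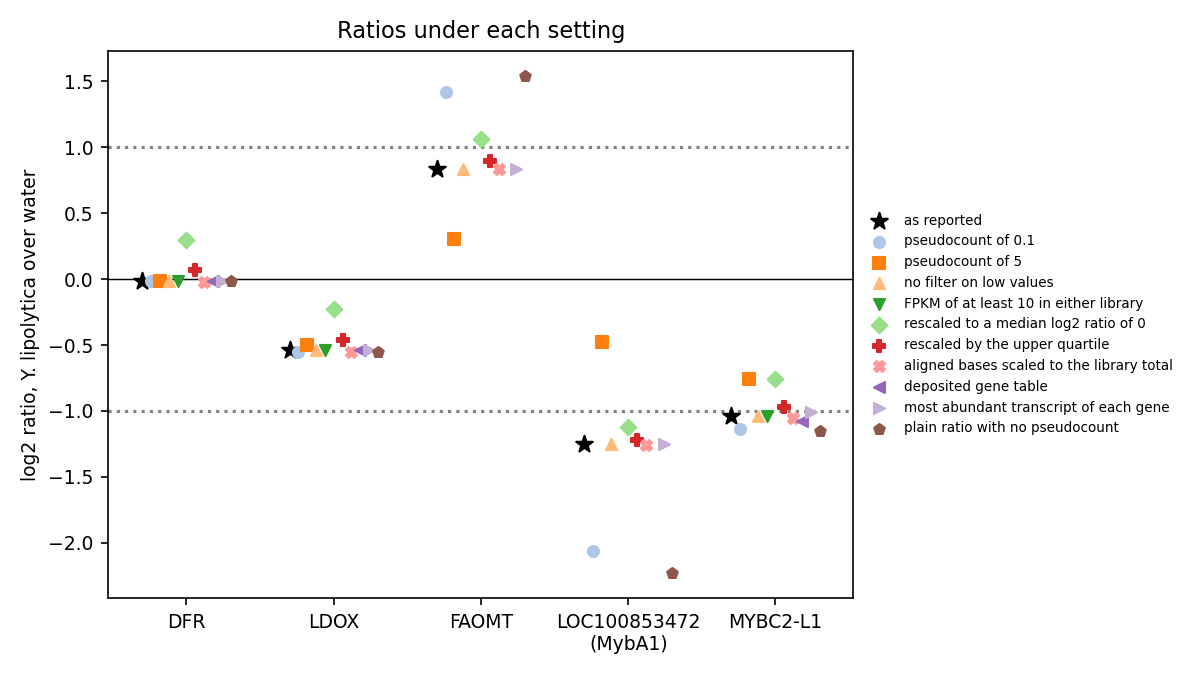
Log2 ratio of the yeast-treated over the water library for each gene under the reported setting (star) and each alternative; dotted lines mark 2-fold. FAOMT and LOC100853472, the lowest in level, spread the most with the pseudocount, from 0.30 to 1.54 and from -2.23 to -0.48, while MYBC2-L1 stays between -1.15 and -0.76.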

How the data were processed

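RNA of wound tissue was sequenced from 1 yeast-treated and 1 water library, grouped by title and treatment protocol, as both samples carry the yeast as their strain label. Per the submitters' processing notes HISAT2 and HTSeq 0.6.1 were used, with no role given. The genome build and annotation are not given in the sources used here. Per the file headers, the authors' transcript tables give FPKM and coverage, a signal of mean depth per base. The deposited gene table holds 1 value per gene that is not the FPKM of its gene. These deposited values were treated as a score, since how the authors made them is not stated, and were used for ratios only.

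The FPKM of transcripts with the same gene name were added. The ratio was log2((treated + 1)/(control + 1)), called past 2-fold, among genes with at least 1 FPKM in either library. Aligned bases (coverage times length) divided by 300 gave fragment equivalents. Among transcripts with up to 1200 aligned bases, 18.6% in the treated and 19.3% in the control library lay within 1 base of a multiple of 300, where even spread gives 0.667%. A ratio's 95% interval is the exact binomial one from fragment equivalents rounded to whole numbers, shifted to hold the FPKM ratio at its point, and those of a ratio of ratios are conditional odds ratio intervals. All cover counting error only. Chromosome numbers and synonyms were taken from a RefSeq gene table of assembly ASM3070453v1, by shared symbols, and coordinates from the files. Calls and intervals were tested on fragments simulated with counting error only, so that test did not cover variation between libraries. Python 3.11.15, pandas 2.3.3 and SciPy 1.17.1 were used.

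The 5 genes, the list and the settings were chosen with earlier results of these data known. Named are the 5 genes, the measured genes of the list, the nearest measured gene on each side and the 2 genes with a symbol closest in log2 ratio. No sequence is printed.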

Additional observations from a re-analysis of the deposited data

How the results depend on the processing

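No paired analysis was possible because there is 1 library a group, nor could a replicate be left out. The alternatives were pseudocounts of 0.1 and 5, no filter, a filter at 10 FPKM, 2 rescalings, aligned bases, the deposited gene table, the most abundant transcript and, chosen after seeing the data, the plain ratio. FAOMT and LOC100853472 have no value at a filter of 10 FPKM or in the deposited gene table at its filter of 1. Neither of the 2 genes past 2-fold changed sign, though a change of pseudocount or filter cannot change a sign. Rescaling to a median ratio of 0 moved DFR to 0.30 and LDOX to -0.23, beyond their counting intervals, and put 1 other list gene, CHI, past 2-fold higher. LOC100853472 stood at -2.06 with a pseudocount of 0.1, -0.48 with a pseudocount of 5 and -2.23 as a plain ratio. It stayed past 2-fold under 7 of 8 alternatives and MYBC2-L1 under 7 of 10, while FAOMT was past 2-fold under 3 of 8. These counts include settings that cannot move a gene's ratio, so they do not measure how firm a call is. Such settings are a changed filter and, for a gene with a single model, the most abundant transcript. Over all genes, the share of higher ones among genes past 2-fold was 63.1%, 82.7% after rescaling to a median of 0 and 44.8% with a pseudocount of 0.1, where 1251 genes were higher and 1540 lower, against 1004 and 587. A pseudocount of 5 left 622 higher and 116 lower. Depth limits FAOMT and LOC100853472, each with under 11 fragment equivalents in one library.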

Other observations

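Of the other genes whose symbol begins with MYB and that the list does not hold, 4 of 5 were measured. MYB14, known as an activator of grape stilbene synthase genes, was the only one past 2-fold, at 136 FPKM with the yeast and 37.1 FPKM with water, a ratio of 3.68 (3.36 to 4.03). MYB24 stood at 14.8 FPKM in both libraries. MYB30 stood at 5.99 FPKM with the yeast and 7.91 FPKM with water, and MYBCS1 at 22.8 FPKM with the yeast and 29.6 FPKM with water. MYBC2-L1 and LOC100853472 lay below each of these 4 ratios. The unmeasured gene, MYB60, stood at 0.0903 FPKM with the yeast and 0.494 FPKM with water. Its plain ratio of 0.183 (0.0192 to 0.884) lay below those of MYBC2-L1 and LOC100853472. With the pseudocount its log2 ratio was -0.45. The O-methyltransferases OMT1, OMT2.1 and OMT2.2 stayed under 0.2 FPKM in both libraries, against 2.04 FPKM with the yeast and 0.698 FPKM with water for FAOMT. These genes were picked by symbol after the values were seen.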
